A study of Gallus gallus with 4 samples.

Results

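Chromosome 3 is among the large macrochromosomes of the chicken, and it carried 6218 of the 47621 H3K9me3 domains (13.1%) that were delineated on 30 autosomes in 2 cell types of the chicken, primordial germ cells (cPGCs) and embryonic stem cells (ESCs). The members are all domains placed on chromosome 3 in either cell type, 3143 in cPGCs and 3075 in ESCs, chosen by chromosome alone. cPGCs are migratory precursors of sperm and eggs kept in culture, and ESCs are undifferentiated cells derived from the early embryo. Chromatin was fixed with formaldehyde, sheared, and immunoprecipitated with an antibody against histone H3 trimethylated on lysine 9. The data used here comprise 4 libraries, 1 immunoprecipitated and 1 input library for cPGCs and 1 of each for ESCs, and no treatment is named for either culture. The line and the number of cultures behind each library are not given in the sources used here.

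H3K9me3 is a mark of transcriptionally silent chromatin. Methyltransferases of the SUV39H and SETDB1 families deposit it, and HP1 proteins bind it and recruit more methyltransferase, so that the mark can spread along neighbouring nucleosomes into wide domains. It is known for covering satellite repeats, transposable elements and genes of other cell lineages.

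The values at hand are the start and end of each domain on galGal5. Read depth, enrichment height and quality of the libraries are unknown, so breadth and position were the measurable quantities. With 1 immunoprecipitated library per cell type there is no replicate error, and the values of cPGCs and ESCs are set side by side without a p-value. Sequencing depth and efficiency of the immunoprecipitation can change the number and width of called domains, and their part in the differences was not tested.

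Domains covered 41.0 Mb of chromosome 3 in cPGCs and 25.2 Mb in ESCs, which is 36.9% and 22.6% of the 111300900 bp up to the last domain. cPGC domains thus held 1.63 times as many bases, a net excess of 15.9 Mb. The number of domains differed little, with a ratio of 1.02, whereas the median width was 9000 bp for cPGC domains and 6000 bp for ESC domains. Over all chromosomes the median widths were 9000 and 6300 bp, close to those of chromosome 3. When chromosome 3 domains 3000 bp or less apart were joined, the order of the numbers turned, with 2028 domains in cPGCs and 2428 in ESCs. The order-statistic 95% interval of the median width ran from 8700 to 9600 bp in the cPGC list, and in the ESC list from 5700 to 6300 bp. The medians of the complete lists are themselves exact. The interval takes the domains of a list as independent draws, which neighbouring domains of 1 library are not. It gives neither the spread of the widths nor that between cultures, and serves below only as a limit for alternatives. Domains of either cell type covered 45.5% of the chromosome, and 54.5% lay outside both lists. The first domain started at base 13801 in cPGCs and at base 5101 in ESCs. The last domain ended at 111298500 in cPGCs and at 111300900 in ESCs. The later of these ends was taken as the end of the chromosome, because its true length was not known here.

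To locate the excess, the chromosome was divided into fixed windows of 5 Mb from its first base, which gave 22 full windows and a last window of 1.3 Mb. cPGC domains held more bases than ESC domains in all 22 full windows. ESC domains held more bases in 20.2% of the 173 full windows of all chromosomes, but likewise in none of those of chromosomes 1 and 2. The ratio reached 1.5 in 14 of the 22 windows (63.6%), against 48.6% of the 173. It did so in 79.5% of the windows of chromosome 1, 86.2% of those of chromosome 2 and 16.9% of those of the other 27 chromosomes, and no test was made of these differences. Coverage per window ranged from 18.9 to 60.4% in cPGCs and from 12.6 to 41.7% in ESCs, a range of 3.2-fold and 3.3-fold. Across the 22 windows, coverage in cPGCs and in ESCs went together (Pearson's r = 0.75, Spearman's rho = 0.78). This is a description over windows of the same 2 domain lists, which share the mappability and base composition of each window.

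**Figure D1:**
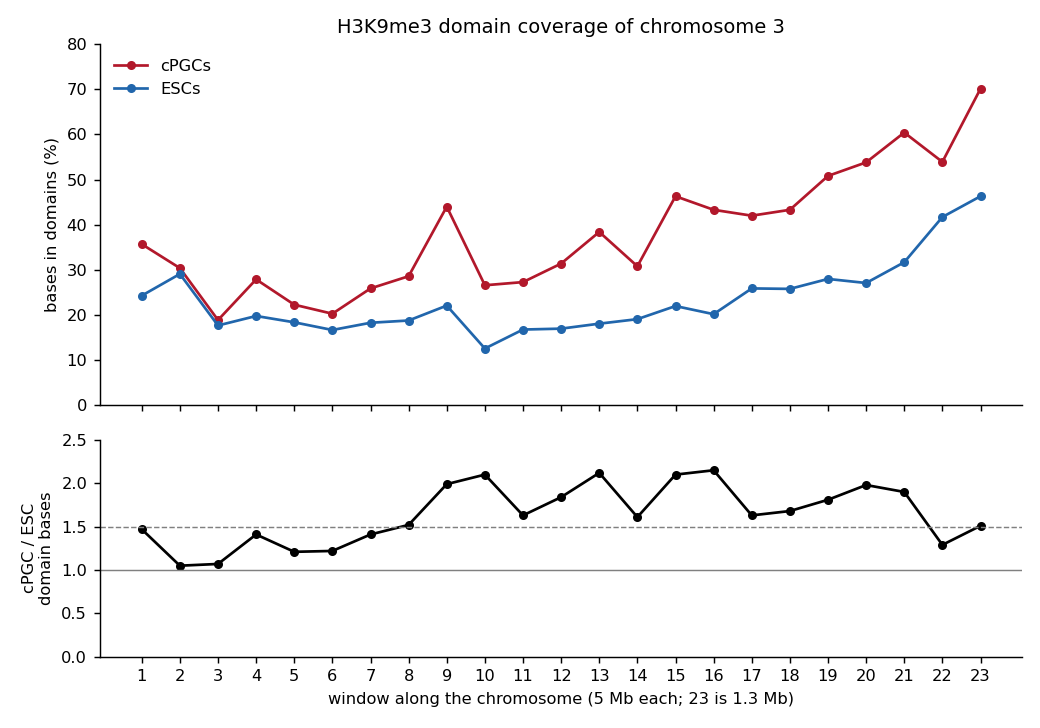
Share of bases in H3K9me3 domains (upper panel, %) and ratio of cPGC to ESC domain bases (lower panel) in windows of 5 Mb along chromosome 3, numbered from its first base, for cPGCs (red) and ESCs (blue), with 1 immunoprecipitated library each. The cPGC line lies above the ESC line in every window, the lines nearly touch in windows 2 and 3 (ratios 1.05 and 1.07), and the ratio exceeds 1.6 from window 9 to window 21; the dashed line marks 1.5.

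From the start of the chromosome to 40 Mb the 8 windows had ratios from 1.05 to 1.52. In the first window cPGC domains covered 35.7% of the bases and ESC domains 24.3%, a ratio of 1.47. This window was uneven. Its first 1 Mb was covered to 58.6% by cPGC domains and 24.0% by ESC domains, and the next 1 Mb to 69.6% and 37.1%, excesses of 346.5 and 324.6 kb, whereas the bin from 4 to 5 Mb had more ESC domain bases. In the windows from 5 to 10 Mb and from 10 to 15 Mb coverage was 30.4% and 18.9% in cPGCs, against 29.1% and 17.7% in ESCs, with ratios of 1.05 and 1.07, the lowest of the chromosome. From 20 to 25 Mb cPGC domains covered 22.3% and ESC domains 18.4%, with a ratio of 1.21, and the next window had a ratio of 1.22. The ratio was 1.41 both from 15 to 20 Mb and from 30 to 35 Mb, and it was 1.52 from 35 to 40 Mb. Windows 2, 3, 5 and 6 each added between 62 and 193 kb to the excess, against 1435 kb from the window at 100 to 105 Mb. From 5 to 10 Mb, cPGC domains alone held 0.892 Mb and ESC domains alone held 0.825 Mb, so that the lists there differed more in place than in amount.

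Between 40 and 105 Mb the excess of cPGCs was present in all 13 windows, with ratios from 1.61 to 2.15. The 3 highest ratios were 2.15 from 75 to 80 Mb, 2.12 from 60 to 65 Mb and 2.10 from 70 to 75 Mb. In these windows coverage was 43.3%, 38.4% and 46.3% in cPGCs, against 20.2%, 18.1% and 22.0% in ESCs. The window from 45 to 50 Mb also had a ratio of 2.10, at low coverage in both cell types, 26.6% in cPGCs and 12.6% in ESCs. The window from 40 to 45 Mb, with 44.0% in cPGC and 22.1% in ESC domains, stood above its neighbours on both sides, and its ratio was 1.99. From 50 to 60 Mb coverage was lower again, at 27.3% and 31.4% in the cPGC list and 16.8% and 17.0% in the ESC list. The lowest ratio of this stretch, 1.61, was that from 65 to 70 Mb, and the windows at 80 to 85 and 85 to 90 Mb had ratios of 1.63 and 1.68. Coverage was higher towards the end of this stretch. It was 50.8% in cPGCs and 28.0% in ESCs from 90 to 95 Mb, 53.8% and 27.1% from 95 to 100 Mb, and 60.4% and 31.7% from 100 to 105 Mb, the highest cPGC coverage of a full window.

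Near the end of the chromosome ESC coverage was high as well. From 105 to 110 Mb it was 53.9% in cPGCs and 41.7% in ESCs, the highest ESC value of a full window, and the ratio was 1.29. In the last 1.3 Mb cPGC domains covered 70.1% and ESC domains 46.3%. Here 90.8% of the ESC domain bases also lay in cPGC domains, against 38.5 to 76.4% in the full windows.

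The stretch beyond 40 Mb makes up 64.1% of the length and carried 85.2% of the net excess of cPGCs. The place of this division and that at 105 Mb were chosen after the windows had been seen. Divided at 35, 45 or 50 Mb, the part beyond held 88.3%, 78.3% and 73.9% of the excess on 68.6%, 59.6% and 55.1% of the length. The 5 windows with the largest excess were those from 100 to 105, 95 to 100, 70 to 75, 75 to 80 and 90 to 95 Mb, and held 39.6% of it. They were picked for their excess among the 22 full windows, so a share above that of their length follows from the choice. cPGC coverage was 26.2% before 40 Mb, 41.4% from 40 to 105 Mb and 57.3% after 105 Mb. ESC coverage in the same stretches was 20.4%, 22.0% and 42.6%. Between 40 and 105 Mb there were 32.1 cPGC domains and 28.8 ESC domains per Mb, while before 40 Mb there were 21.8 and 23.8. Between 40 and 105 Mb the median cPGC domain was 9300 bp wide and the median ESC domain 5700 bp, while before 40 Mb these medians were 7800 bp and 6300 bp. Both the number and the width of domains were thus more in favour of cPGCs in the middle stretch. Number and width together make up the bases of the windows seen before the borders were chosen, so this is a description only.

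**Figure D2:**
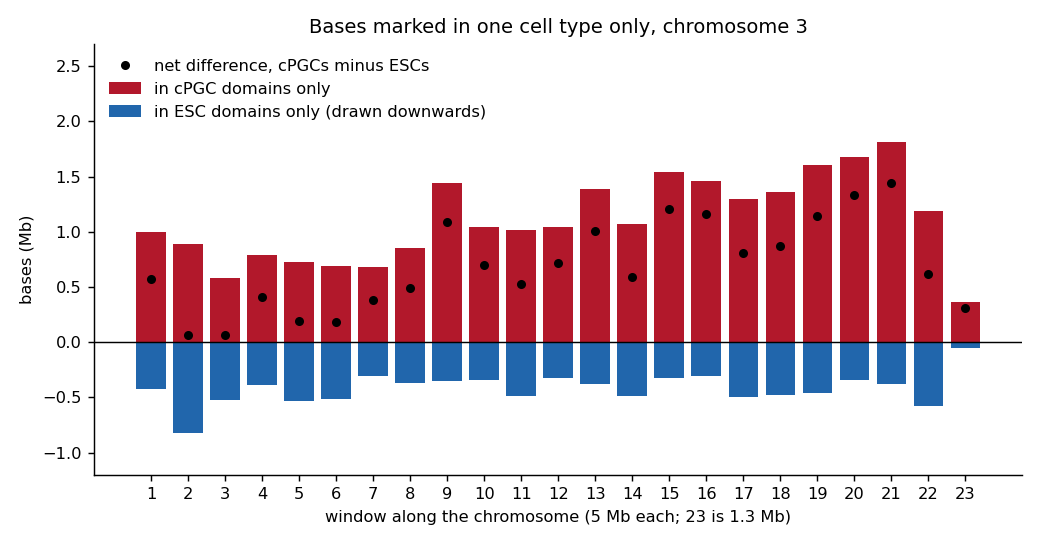
Bases (Mb) that lay in cPGC domains alone (red bars, upwards) and in ESC domains alone (blue bars, downwards) in each 5 Mb window of chromosome 3, with the net difference, cPGCs minus ESCs, as black points. Among full windows the red bars range from 0.583 to 1.81 Mb and the blue bars from 0.302 to 0.825 Mb; window 23 is shorter than the others.

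In every full window the median cPGC domain was at least as wide as the median ESC domain. It was wider in 21 windows and equal in the window from 5 to 10 Mb, where both medians were 7800 bp. The median width per window ranged from 6900 to 11700 bp for cPGC domains and from 4800 to 7800 bp for ESC domains, and their ratio reached 1.94 from 60 to 65 Mb. The number of domains behaved differently. More domains started in cPGCs in 12 windows and more in ESCs in 10, with ratios from 0.755 in the first window to 1.34 from 45 to 50 Mb. Window 22 had 155 domains in cPGCs and 197 in ESCs, although cPGC domains covered more bases there.

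In bins of 1 Mb, cPGC domains held more bases in 97 of the 111 full bins and ESC domains in 14. Of these 14 bins, 9 lay among the 40 bins before 40 Mb and 5 among the 71 bins after it. The border at 40 Mb was set after the windows had been seen, and windows and bins hold the same bases. The longest unbroken run of bins with more cPGC domain bases extended over 32 bins, from 28 to 60 Mb. cPGC domains covered over 50% of 31 bins, 27 of them beyond 40 Mb, whereas ESC domains did so in 3 bins. The bin with the largest excess lay from 101 to 102 Mb, with 80.2% coverage in cPGCs and 33.3% in ESCs. The bins from 98 to 99 Mb and from 86 to 87 Mb followed, with excesses of 466 and 463.5 kb. The bins with the largest surplus of ESC domains lay from 9 to 10 Mb, with 8.85% coverage in cPGCs and 24.6% in ESCs, and from 4 to 5 Mb, with 8.49% and 23.3%. From 106 to 107 Mb, in a densely marked neighbourhood, coverage was 18.6% in cPGCs and 28.9% in ESCs.

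The width of the domains ranged from 300 bp, the window of the island caller, to 216600 bp among cPGC domains and 99600 bp among ESC domains. The quartiles of the width were 4800 and 16200 bp among cPGC domains and 3300 and 10500 bp among ESC domains, and the highest 5% of widths began at 38400 and 21600 bp. Mean width was 13055 ± 14192 bp in cPGCs (SD over 3143 domains) and 8182 ± 7415 bp in ESCs (SD over 3075 domains). Domains under 3 kb numbered 309 in cPGCs and 612 in ESCs. The class from 3 to 10 kb was the most numerous in both cell types, with 1427 domains in cPGCs and 1620 in ESCs. Both narrow classes held fewer bases in cPGCs than in ESCs. From 10 kb upwards the order was the other way round, with 855 and 644 domains of 10 to 20 kb, 467 and 194 domains of 20 to 50 kb, and 75 and 5 domains of 50 to 100 kb. Domains of 100 kb and over numbered 10 in cPGCs, and none of the 3075 ESC domains reached this width.

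Domains of 20 to 50 kb added up to 13431600 bp in the cPGC list and 5304000 bp in the ESC list, a difference of 8.13 Mb or 51.2% of the net excess. Domains of at least 50 kb held 6.13 Mb in cPGCs and 0.371 Mb in ESCs, or 36.3% of the net excess. When domains 3000 bp or less apart were joined, this share was 87.1%, so the assignment of the excess to widths depended on the gap at which the caller ended a domain. These shares compare bases within a width class. They include cPGC bases that also lay in ESC domains of another width, such as 67.2%, 70.1% and 92.5% of the 3 widest cPGC domains. They do not locate the bases marked in cPGCs alone.

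**Figure D3:**
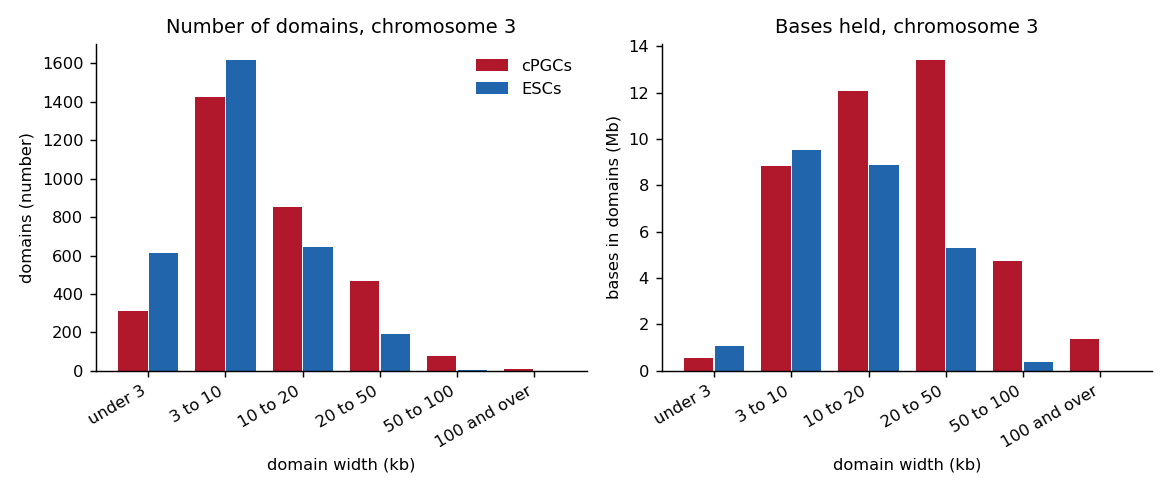
Number of H3K9me3 domains (left) and bases they hold in Mb (right) on chromosome 3 by domain width in kb, for cPGCs (red) and ESCs (blue). cPGCs have fewer domains below 10 kb, with 309 under 3 kb against 612 in ESCs, and more domains and bases in every class from 10 kb up.

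The widest cPGC domain extended over 216600 bp (galGal5, chromosome 3, 16187701 to 16404300). It overlapped 11 ESC domains of 2700 to 29400 bp, the highest number under a single domain of the chromosome, and 67.2% of its bases lay in them. The last of these ESC domains ended 4200 bp beyond it, and was followed by the 347100 bp from 16408501 to 16755600 without an ESC domain, which held 1 cPGC domain over 1.21% of the bases. The second widest cPGC domain spanned 197700 bp (30029701 to 30227400) and overlapped 9 ESC domains of 2100 to 47400 bp. The third spanned 156600 bp (109869901 to 110026500) near the end of the chromosome. ESC domains covered 92.5% of it, in 6 pieces of up to 52800 bp.

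The widest ESC domain spanned 99600 bp (30537001 to 30636600) and lay wholly inside a cPGC domain of 130200 bp (30506701 to 30636900), the fourth widest of that list. The third widest ESC domain, 71700 bp (30674101 to 30745800), was next to it, and 84.9% of its bases lay in a cPGC domain of 95700 bp. In the 1 Mb that starts at 30 Mb, cPGC domains covered 60.2% and ESC domains 52.0%, so that both cell types carried wide domains there. The second widest ESC domain was of another kind. It spanned 80700 bp (24835201 to 24915900), and 2 cPGC domains of 2100 and 37200 bp covered 48.7% of it. This is a place on chromosome 3 where the ESC domain was the wider one.

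The distance between neighbouring domains was shorter in cPGCs. The median gap was 6300 bp between cPGC domains and 12900 bp between ESC domains. Over all chromosomes the median gaps were 6600 and 13500 bp, close to those of chromosome 3. On chromosome 3 the quartiles of the gap were 2400 and 21000 bp in the cPGC list and 3900 and 34200 bp in the ESC list. Gaps under 10 kb made up 60.6% of the 3142 gaps in cPGCs and 43.7% of the 3074 gaps in ESCs. The shortest gap was 1800 bp in both cell types, because the authors joined enriched windows across gaps of up to 1500 bp, and 444 gaps in cPGCs and 213 in ESCs had exactly this length. The long gaps were more alike. Gaps of 100 kb or more numbered 142 in cPGCs and 174 in ESCs, and took up 23.6% and 24.4% of the chromosome. Before 40 Mb there were 71 such gaps in cPGCs and 79 in ESCs, between 40 and 105 Mb 67 and 94, and after 105 Mb 4 and 1. These stretches make up 35.9%, 58.4% and 5.66% of the length, and their borders were chosen after the windows had been seen.

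The longest gap was the same place in both cell types. It measured 535200 bp between cPGC domains (11707501 to 12242700) and 505500 bp between ESC domains (11714401 to 12219900), and the whole ESC gap was free of cPGC domains. The next longest cPGC gaps, 500100 bp (21737101 to 22237200) and 471900 bp (26448901 to 26920800), held 8 and 12 ESC domains over 16.7% and 14.3% of their bases. The second longest ESC gap, 433500 bp (17262601 to 17696100), held 1 cPGC domain over 0.484% of its bases. Stretches of at least 100 kb free of domains in both cell types numbered 60 and added up to 8.79 Mb. Of these, 39 lay before 40 Mb, on 35.9% of the length, and 21 beyond it, on 64.1%. The division at 40 Mb was chosen after the coverage of the windows had been seen, so these counts are a description only. Domains were called from uniquely mapping read pairs, and whether these stretches hold sequence that cannot be mapped was not checked.

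Positions were compared by sorting bases into 3 classes that the study defined. A base was in the shared core when both cell types had a domain there, in an expansion when it belonged to the remainder of a domain that touched the other list, and specific when its domain touched none. The shared core of chromosome 3 held 15.5 Mb, which is 37.8% of the cPGC domain bases and 61.6% of the ESC domain bases. Expansions held 13.7 Mb (33.4%) in cPGCs and 3.83 Mb (15.2%) in ESCs. Specific domains held 11.8 Mb (28.8%) in cPGCs and 5.82 Mb (23.1%) in ESCs. Over all chromosomes, expansions took up 33.0% of the cPGC and 14.7% of the ESC domain bases, and specific domains 26.3% and 23.5%. The core took up 40.6% and 61.7% there, and all these shares lay close to those of chromosome 3. Since the core is common to both, the net excess of cPGCs was made up of 9.87 Mb from expansions (62.1%) and 6.01 Mb from specific domains (37.9%). This division depended on the overlap required. When 50% of a domain had to lie in the other list, the specific share was 62.7% in cPGCs and 33.4% in ESCs. The expansion share was then only 8.74% in cPGCs and 8.04% in ESCs. Under this rule a wide domain counts as specific even when it contains narrower domains of the other list that cover less than 50% of it. It thus bears harder on the wider cPGC domains, and its specific share includes bases marked in both cell types. When domains 3000 bp or less apart were joined, the specific share was 19.0% in cPGCs and 20.2% in ESCs, the opposite order. The expansion share was then 41.5% in cPGCs and 15.3% in ESCs.

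At least 1 bp of overlap with the other list was found for 1747 cPGC domains (55.6%) and 2034 ESC domains (66.1%). Over all chromosomes these shares were 57.0% and 65.4%, close to those of chromosome 3. The ESC share differed between chromosomes, with 78.9% on chromosome 1, 75.7% on chromosome 2 and 54.0% on the other 27. In cPGCs the same 3 shares were 57.9%, 55.1% and 58.1%. Overlapping domains were the wider ones in both lists. Their median width was 12000 bp for cPGC domains and 7200 bp for ESC domains, while that of specific domains was 6750 bp and 4500 bp. A limit of 1 bp favours wide domains wherever they lie, and its part in this order was not tested. Wholly inside a domain of the other list lay 324 cPGC domains (10.3%) and 1017 ESC domains (33.1%). Taking the partner with the largest overlap, which favours wide partners, 657 of the 1747 cPGC domains (37.6%) had a wider ESC partner and 1064 a narrower one, while 1540 of the 2034 ESC domains (75.7%) had a wider cPGC partner and 467 a narrower one.

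Of the cPGC domains, 414 (13.2%) lay over 2 or more ESC domains and 20 over 5 or more. Of the ESC domains, 286 (9.3%) lay over 2 or more cPGC domains, and 1 domain of 30600 bp (107379301 to 107409900) overlapped 5. The 414 cPGC domains had a median width of 25200 bp, held 32.6% of the cPGC domain bases and lay over 976 ESC domains, 31.7% of that list. The stretches between the ESC domains under 1 such cPGC domain added up to 3.25 Mb, which is 23.8% of the cPGC expansions. The remaining expansion bases lay at the outer sides of domains.

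The share of ESC domain bases that also lay in cPGC domains varied along the chromosome, from 38.5% between 25 and 30 Mb to 76.4% between 100 and 105 Mb, with a median of 61.8% over the 22 windows. It was 52.5% before 40 Mb, 64.1% between 40 and 105 Mb and 76.4% after 105 Mb. cPGC coverage was 26.2%, 41.4% and 57.3% in the same 3 stretches, and its part in the share was not tested. Between 5 and 15 Mb, where the ratios were lowest, 43.3% and 41.0% of the ESC domain bases of the 2 windows were in cPGC domains.

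Among cPGC domains that touched no ESC domain, the widest measured 77700 bp (81110101 to 81187800), followed by those of 58200 bp (79079701 to 79137900) and 52200 bp (50069401 to 50121600). All 3 lay beyond 40 Mb, as did most cPGC domains, of which 873 of 3143 lay before it. Among ESC domains that touched no cPGC domain, the widest measured 42900 bp (10323901 to 10366800), 32100 bp (27895801 to 27927900) and 30000 bp (81878701 to 81908700). Of these, 2 lay before 40 Mb, as did 953 of all 3075 ESC domains. With 3 domains per list, no preference for a stretch can be read from these places. The median distance of a specific domain to the nearest domain of the other cell type was 12000 bp for the 1396 specific domains of cPGCs and 15600 bp for the 1041 of ESCs. Distances over 20 kb were found for 34.2% of the cPGC and 42.7% of the ESC specific domains, and the greatest was 198600 bp for a cPGC domain and 229200 bp for an ESC domain. Specific domains within 3 kb of the other list made up 17.0% in cPGCs and 14.6% in ESCs.

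The annotated loci at hand place 6 genes on chromosome 3, each with its promoter and gene body in the Ensembl annotation of galGal5. They were taken whatever their coverage and are part of the genes of the chromosome only. The strand, exons and introns were not used here, so no promoter was told from the rest of a locus. Domains of both cell types overlapped 4 of the 6 loci, each covered to a larger part in cPGCs, and 2 loci were free of domains in both. Among all 1999 loci at hand, 28.9% carried a cPGC domain, 37.8% an ESC domain, 21.8% both and 55.1% neither, and 53.1% of the 435 loci with both had more bases in cPGC domains. Only 6 of these 1999 loci lie on chromosome 3, so the shares describe other chromosomes almost alone. Whether the loci at hand represent all genes was not checked. With 6 loci, nothing particular to chromosome 3 can be read from the count.

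*PLG* (ENSGALG00000004293) encodes plasminogen, the liver-made precursor of the clot-dissolving protease plasmin. Its locus (45525514 to 45546436) lay wholly inside a cPGC domain of 29400 bp (45517201 to 45546600), giving 100% coverage, against 60.6% in ESCs. The ESC bases came from 2 domains of 6900 and 12000 bp that both lay within the same cPGC domain. *SLC22A7* (ENSGALG00000001661) encodes an organic anion transporter, known from liver and kidney of mammals. A cPGC domain of 12000 bp (15991801 to 16003800) covered 81.3% of its locus (15989160 to 16003916), and an ESC domain of 9000 bp (15984901 to 15993900) covered 32.1% at the opposite side, so that the 2 domains overlapped only in part.

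*MOXD1* (ENSGALG00000002911), a monooxygenase related to dopamine beta-hydroxylase, had 34.2% of its locus (57096709 to 57149346) in a cPGC domain of 18000 bp and 16.5% in an ESC domain of 8700 bp. The ESC domain (57134701 to 57143400) lay inside the cPGC domain (57127501 to 57145500). *USP34* (ENSGALG00000004455) encodes a large deubiquitinating enzyme that acts in Wnt signalling in human cells. Its locus of 152983 bp (2200547 to 2353529) had 17.6% of its bases in cPGC domains and 11.6% in ESC domains. In both cell types a domain started at 2241001 and another at 2253601. The cPGC domains were 9600 and 17400 bp wide, against 1800 and 6900 bp in ESCs, and a further ESC domain of 9000 bp (2339701 to 2348700) had no counterpart in cPGCs.

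*AHSA2P* (ENSGALG00000004483), annotated as related to an activator of the HSP90 ATPase with a locus that runs into that of *USP34*, and *TMEM200A* (ENSGALG00000002282), a transmembrane protein gene, had no domain over their loci (2192107 to 2200894 and 57945699 to 57947668). The nearest domain to *AHSA2P* was 10806 bp away in cPGCs and 33606 bp in ESCs, and to *TMEM200A* 10298 bp and 13898 bp. The neighbourhood of the loci varied as well. In the 100 kb on each side, domains covered 43.0% around *MOXD1* in cPGCs and 7.35% in ESCs, 33.0% and 31.8% around *PLG*, and 33.0% and 25.9% around *USP34*. Around *SLC22A7* the order was reversed, with 10.2% in cPGCs and 22.3% in ESCs, although the locus itself was covered more in cPGCs.

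**Figure D4:**
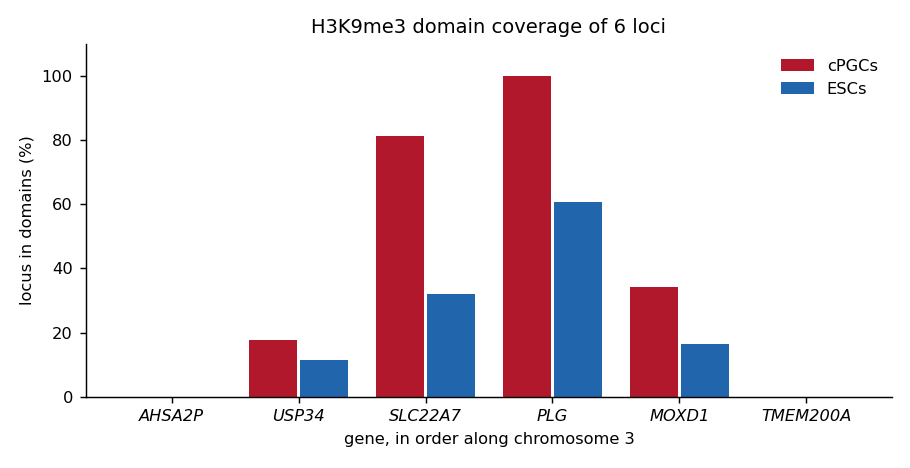
Share of each of 6 loci of chromosome 3 in H3K9me3 domains (%), in order along the chromosome, for cPGCs (red) and ESCs (blue), with 1 immunoprecipitated library each. *PLG* reaches 100% in cPGCs and 60.6% in ESCs, while *AHSA2P* and *TMEM200A* have no bar because both values are 0.

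By the ratio of bases, chromosome 3 lay between the 2 larger chromosomes and the rest. The ratio of cPGC to ESC domain bases was 1.63 on chromosome 3, 1.89 on chromosome 1, 1.98 on chromosome 2 and 1.12 on the other 27 chromosomes together. Its rank was 3 among the 29 chromosomes that carried both lists. By coverage, the rank of chromosome 3 was 6 in cPGCs and 14 in ESCs. Domains per Mb numbered 28.2 in cPGCs and 27.6 in ESCs on chromosome 3, against 32.6 and 30.2 on chromosome 1, 32.7 and 28.9 on chromosome 2, and 18.3 and 23.5 on the other 27. ESC domains held more bases than cPGC domains in none of the full 5 Mb windows of chromosomes 1, 2 and 3, and in 42.2% of the 83 full windows of the others.

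Specific domains of cPGCs took up 28.8% of the cPGC domain bases on chromosome 3, against 25.6% on chromosome 1, 28.7% on chromosome 2 and 24.5% on the other 27. Those of ESCs took up 23.1% on chromosome 3, against 12.6%, 16.4% and 32.1% in the same order. Over all chromosomes together the specific shares were 26.3% in cPGCs and 23.5% in ESCs, near those of chromosome 3. Domains of at least 50 kb made up 2.7% of the cPGC domains of chromosome 3, against 4.57%, 2.93% and 2.88%. In ESCs they made up 0.163%, against 0.489%, 0.231% and 0.708%. No test was made of these differences, since neither chromosomes nor windows are replicates of a culture.

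**Figure D5:**
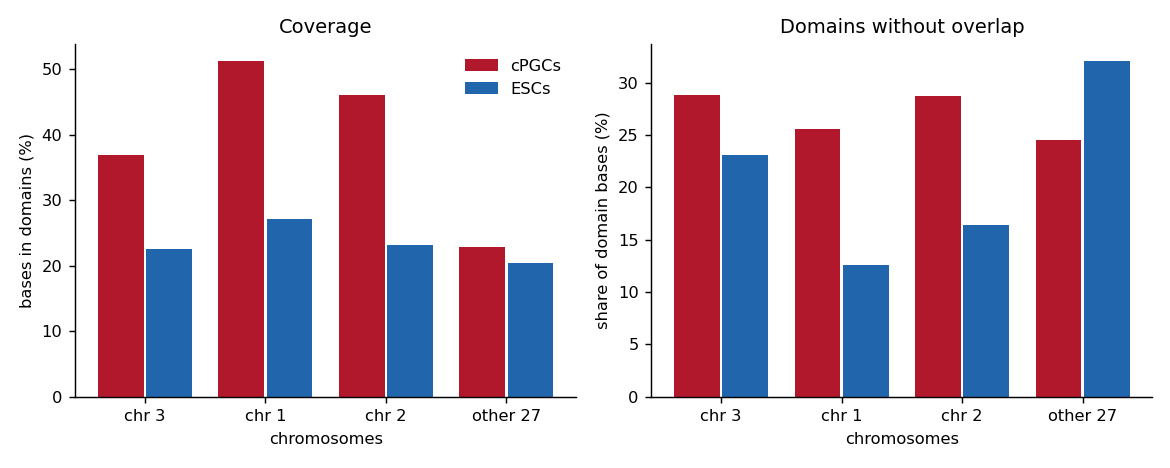
Share of bases in H3K9me3 domains (left, %) and share of the domain bases that lie in domains without overlap with the other cell type (right, %) on chromosome 3, chromosome 1, chromosome 2 and the other 27 chromosomes together, for cPGCs (red) and ESCs (blue). On chromosome 3 coverage is 36.9% in cPGCs and 22.6% in ESCs, and the share of specific domains is 28.8% in cPGCs and 23.1% in ESCs.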

How the data were processed

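The 4 libraries were H3K9me3 ChIP and input of cPGCs and of ESCs, 1 of each. The authors aligned read pairs to galGal5 with Bowtie 2, kept uniquely mapping proper pairs (mapping quality of at least 30), called MACS2 broad peaks (cutoff 0.1) and SICER islands (window 300 bp, gap 1500 bp) against input, and retained islands of very low false-discovery rate or overlapped by a peak, on main autosomal scaffolds. The deposited values are domain positions. Multimapping reads were not used, so repeats are underrepresented. Starts count from 0, and 1 was added for printing. Library depth is not given in the sources used here.

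Widths, gaps, covered bases and overlaps (at least 1 bp) were computed with pandas 2.3.3, scipy 1.17.1 and numpy 2.4.6 under Python 3.11.15, and matplotlib 3.10.9 drew the figures. The routines returned the known answer in 13 of 13 checks on simulated lists. Windows of 5 Mb started at base 1. Named domains are the 3 widest, the 3 widest without overlap and the 3 longest gaps per cell type, and those over the most domains of the other. Named genes are all 6 chromosome 3 genes among the 1999 loci at hand, matched to RefSeq (GRCg7b) for names. Members, lists and rules were chosen with earlier results of these data known. As alternatives, neighbours up to 3000 bp apart were merged, a minimum width of 3000 or 5000 bp was set, 50% overlap was required, and the windows were changed.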

Additional observations from a re-analysis of the deposited data

How the results depend on the processing

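There is no replicate, so an alternative was set against 1.5 times a count, the Wilson 95% interval of a share (over 300 bp bins for bases, over domains or windows otherwise) or the order-statistic interval of a median. Shares of the net excess were treated in the same way. The excess is a difference of bases whose parts can be negative, so the limits for these shares are arbitrary. Neighbouring bins depend on each other, which makes the intervals of base shares too narrow. Neighbouring domains and windows of 1 library are not independent draws either, so these intervals are working limits and no error of a culture. Of 76 alternative values for 19 results, 22 stayed within these limits and 54 moved. This tally does not measure stability, because the limits differ in width. For windows with more ESC bases they ran from 0.0 to 14.9%, so that 10.9% with windows of 2 Mb counted as staying. For cPGC coverage they ran from 36.7 to 37.0%, so that 36.4% counted as moved. The order of the cell types turned for the number of domains and for the specific share when domains were joined.

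Joining domains 3000 bp or less apart gave 2028 cPGC domains, fewer than the 2428 ESC domains, coverage of 39.0% in cPGCs and 23.9% in ESCs, and median widths of 12000 and 7200 bp. cPGC specific bases were then 19.0% and ESC specific bases 20.2%, and 58.9% of the cPGC domains overlapped. The difference between the cell types in bases of domains of 50 kb or more was 87.1% of the net excess. With domains of at least 3000 bp, coverage was 36.4% and 21.6%, median width 9900 and 7500 bp, the ratio of bases 1.68, cPGC specific bases 33.1%, and 52.9% of cPGC and 69.2% of ESC domains overlapped. With domains of at least 5000 bp, coverage was 34.6% and 19.4%, median width 12000 and 9600 bp, the number of ESC domains 1829 beside 2344 cPGC domains, the ratio of bases 1.79, specific bases 38.5% and 25.1%, and 48.6% and 68.6% of the domains overlapped.

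Requiring 50% of a domain's own bases gave specific bases of 62.7% in cPGCs and 33.4% in ESCs, with 32.8% and 58.1% of the domains counted as overlapping. Domains overlapped to less than 50% were counted as specific here. Requiring 50% of the narrower domain gave 33.9% and 27.7%, with 49.7% and 61.1%. The share of the net excess beyond 40 Mb was 84.7% with either minimum width, and 88.3%, 78.3% and 73.9% when divided at 35, 45 and 50 Mb; these alternatives were chosen after seeing the data. Windows of 2 Mb had more ESC bases in 6 of 55, and 5 Mb windows started 2.5 Mb further in 1 of 21. No paired analysis was possible because each group has 1 sample. The missing depth limits all values to the breadth of called domains.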

Other observations

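Borders were compared where 1 cPGC domain and 1 ESC domain overlapped each other and no further domain, which gave 936 pairs on chromosome 3, or 29.8% of the cPGC and 30.4% of the ESC domains. In these pairs the median cPGC domain was 10500 bp wide and the median ESC domain 6450 bp. The cPGC domain extended beyond the ESC domain on both sides in 336 pairs (35.9%), and the ESC domain beyond the cPGC domain on both sides in 117 (12.5%). In 390 pairs (41.7%) the domains were staggered, each reaching beyond the other on one side. The cPGC domain started a median of 900 bp earlier and ended a median of 900 bp later, with quartiles of -900 and 4800 bp at each border. Where the cPGC domain reached further, its bases beyond the ESC border added up to 3.3 Mb at each side. Bases by which ESC domains reached further were not subtracted from these sums. Starts coincided on the 300 bp grid in 48 pairs and ends in 47, and both borders in 2.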
